A study of Mus musculus with 30 samples.

Results

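The 9 pericentral Wnt target genes *Axin2*, *Lgr5*, *Rnf43*, *Znrf3*, *Tbx3*, *Glul*, *Slc1a2*, *Rhbg* and *Lect2* were examined in mouse liver across 5 diets that differed in the amount and source of protein. They were chosen by symbol, and all 9 were present among the 14173 genes of the deposited count table, measured in each of 30 livers, and passed the filter on low counts in every comparison. *Axin2* was on the list because it had been seen to differ between diets in these same data, with no pair of diets named. Its values are therefore given as a description with no test, and counts of genes that changed refer to the other 8.

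Livers came from singly housed male C57BL/6J mice, 6 per diet, killed at 6 months of age after 12 weeks on the diet and a fast of 4 h. Before that, mice spent 2 weeks on a 20% casein or 20% soy diet and began the experimental diets at 12 weeks of age. The control diets held 20% casein (Cas-20%, with 0.57 g methionine and 0.41 g cysteine per 100 g), 20% soy protein (Soy-20%, 0.22 g of each) or 20% soy protein with added sulfur amino acids (Soy-20% + SAA, 0.58 and 0.41 g). The restricted diets held 5% casein (Cas-5%, 0.15 and 0.10 g) or, under the name Soy-10%, 11.5% soy protein by the labels (0.13 g of each). Messenger RNA was counted at its 3′ end, with 7694015 to 14565542 counts per library and 1 library per mouse. These libraries hold all cells of the liver, so that fewer cells of a type and less RNA per cell cannot be told apart. The hepatocyte markers *Alb*, *Ttr*, *Apoa1*, *Trf* and *Serpina1c* were counted in all 30 livers, with most counts for *Alb*.

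Hepatocytes along the liver lobule divide their work by position. Endothelial cells of the central vein release Wnt ligands and the R-spondin Rspo3, which stabilize β-catenin in the nearest hepatocytes, and β-catenin with TCF/LEF factors then drives the pericentral programme. That programme captures leftover ammonia as glutamine, while urea synthesis belongs to periportal hepatocytes. Among the genes here, *Axin2*, *Rnf43* and *Znrf3* encode feedback brakes on the pathway, *Lgr5* encodes a receptor for R-spondins and *Tbx3* a T-box transcription factor. *Glul* encodes glutamine synthetase, *Slc1a2* a glutamate transporter, *Rhbg* an ammonium transporter and *Lect2* a secreted hepatokine.

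The set of RefSeq start sites on GRCm38.p6 used here covered 5 of the 9 genes (*Axin2*, *Glul*, *Lect2*, *Slc1a2* and *Rnf43*, the last with 2). That set had no entry for *Lgr5*, *Rhbg*, *Tbx3* or *Znrf3*, which does not mean that these genes lack an annotated start. The 250 bases before each start were searched on both strands for the TCF/LEF word CTTTG followed by 2 letters that are each A or T, which 14.8% of 32851 such windows hold. A match was found in 2 of the 6 windows, ATCAAAG at 32 bases before the start of *Lect2* (chr13:56548539-56548788, minus strand) and at 207 bases before that of *Slc1a2* (chr2:102706188-102706437, plus strand, an internal start of the annotated gene). The *Axin2* window (chr11:108920099-108920348, plus strand) held none, which says only that these letters are not in this window. The 3 windows are shown because *Lect2* and *Slc1a2* are the 2 genes whose window holds such a word and *Axin2* is a common gauge of the pathway. Capitals mark the match.
Axin2: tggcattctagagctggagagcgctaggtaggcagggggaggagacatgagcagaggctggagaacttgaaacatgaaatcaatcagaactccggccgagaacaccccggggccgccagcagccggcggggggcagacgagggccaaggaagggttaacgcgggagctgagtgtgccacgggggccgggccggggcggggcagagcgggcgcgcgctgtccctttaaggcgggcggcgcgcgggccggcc
Lect2: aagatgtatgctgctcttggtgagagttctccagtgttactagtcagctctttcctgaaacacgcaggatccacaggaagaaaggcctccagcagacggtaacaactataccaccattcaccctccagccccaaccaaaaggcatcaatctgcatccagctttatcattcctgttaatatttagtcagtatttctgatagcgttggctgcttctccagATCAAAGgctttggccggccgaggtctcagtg
Slc1a2: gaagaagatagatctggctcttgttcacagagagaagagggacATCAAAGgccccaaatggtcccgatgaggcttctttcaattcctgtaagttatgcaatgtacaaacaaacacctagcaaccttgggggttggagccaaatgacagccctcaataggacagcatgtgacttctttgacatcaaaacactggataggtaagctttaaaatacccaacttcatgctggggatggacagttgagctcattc

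Before any diet is compared, 4 libraries have to be set apart. In livers 3 to 6 of Soy-20% + SAA, genes with a GC-poor 3′ end were under-represented. For each library, log2 CPM (counts scaled to the library size) of 11967 genes was regressed on the GC content of the last 200 transcript nucleotides. The slope in those livers was 0.0549, 0.174, 0.168 and 0.193, as the change in log2 CPM for each 10% of GC. It lay between −0.0571 and 0.0235 in the other 26 livers, among them −0.0274 and −0.0253 in livers 1 and 2 of the same diet. The 9 genes span much of the GC range. *Axin2* has 24% GC in its last 200 nucleotides, and only 1.5% of all genes have less, whereas *Znrf3* has 28.5%, *Slc1a2* 32.5%, *Glul* 38.0%, *Lgr5* 41.0%, *Rnf43* 42.5%, *Lect2* 48.5%, *Rhbg* 49.0% and *Tbx3* 49.5%. Over the last 500 nucleotides *Axin2* has 44.0% GC, so that its low GC holds for the shorter window only. Comparisons that use this diet were repeated without livers 3 to 6 and with the slope as a covariate.

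Within the Soy-20% + SAA diet, livers 3 to 6 differed from livers 1 and 2 by −1.07 in log2 CPM for *Axin2*, against a median of −0.43 (quartiles −0.83 and −0.14) for the 302 genes in its GC class, under 25%. *Axin2* thus lay below the lower quartile of its GC class, which rests on the last 200 nucleotides. *Znrf3* differed by −0.53, inside the quartiles of its class (−0.59 and −0.01, median −0.25). *Slc1a2* (0.29) and *Lgr5* (0.29) lay above the upper quartiles of their classes (0.10 and 0.22), and so did *Lect2* (0.38) and *Rhbg* (0.61) in the class with an upper quartile of 0.27. *Tbx3*, in that same class, lay below the lower quartile of −0.12 with −0.21. *Glul* (0.02) and *Rnf43* (0.08) were close to the medians of their classes, −0.03 and 0.05. Livers of a single diet are set against each other here, with 2 livers on one side, and no test was made.

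**Figure D1:**
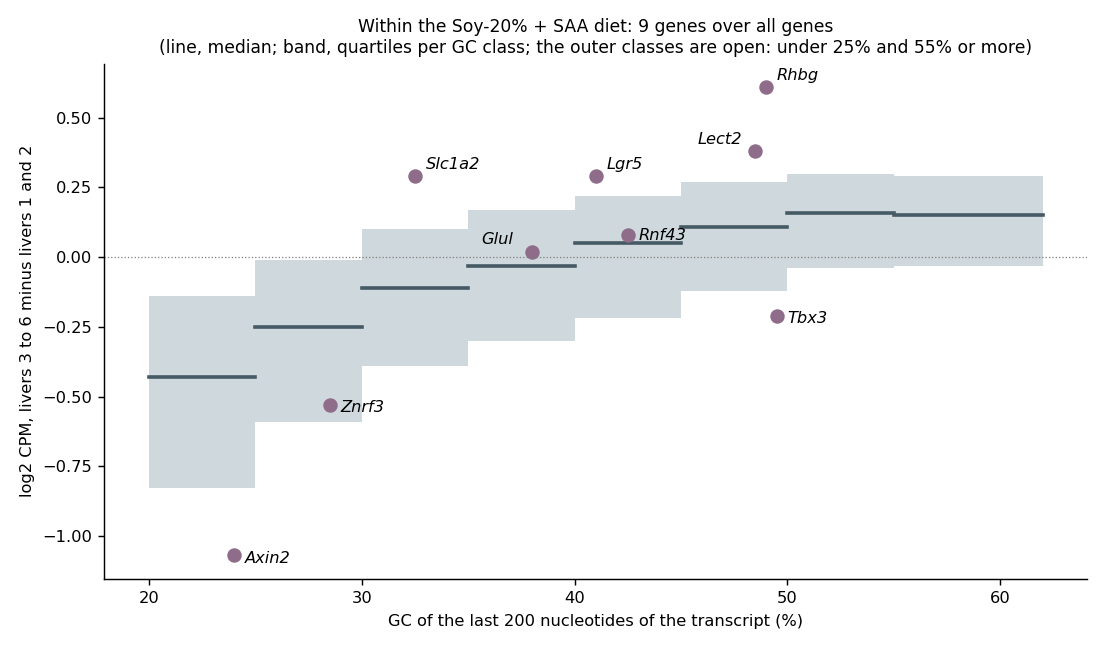
Difference in log2 CPM between livers 3 to 6 and livers 1 and 2 of Soy-20% + SAA (y axis) against the GC content of the last 200 transcript nucleotides in percent (x axis). Points are the 9 genes, lines are medians and bands quartiles of all genes per GC class, the outermost classes being under 25% and 55% or more; Axin2 is the lowest point at −1.07 and Rhbg the highest at 0.61.

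The level of *Axin2*, in normalized counts (raw counts divided by the authors' size factor), was 50.1, 27.4, 61.4, 43.4, 66.7 and 64.2 in livers 1 to 6 of Cas-20% and 97.9, 81.7, 88.3, 49.0, 56.1 and 67.8 in Cas-5%. It was 51.3, 40.9, 40.2, 52.3, 41.8 and 27.4 in Soy-20%, and 65.0, 65.4, 46.5, 36.5, 51.3 and 40.8 in Soy-10%. In Soy-20% + SAA it was 41.1, 16.6, 20.3, 10.5, 11.2 and 6.94. The 4 lowest values of all 30 livers therefore came from Soy-20% + SAA livers 2, 4, 5 and 6, and liver 3 was next, while liver 1 of that diet lay within the range of the other diets. Group means rose in the order Soy-20% + SAA (17.8 ± 12.4, SD, n = 6), Soy-20% (42.3 ± 9.06), Soy-10% (50.9 ± 12.1), Cas-20% (52.2 ± 15.1) and Cas-5% (73.5 ± 19.1). With livers 1 and 2 alone, the mean of Soy-20% + SAA was 28.8, still the lowest. The lowest and second groups, and the fourth and highest, were farther apart than the larger of their SDs, and the middle 3 groups were not. With raw counts of only 9 to 99 per library, counting noise is a visible part of these values.

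Plotted against the slope of its library, the *Axin2* level was low in all 4 livers of high slope (6.94 to 20.3), but also in Soy-20% + SAA liver 2 (16.6), whose slope was −0.0253. Liver 1, with a slope of −0.0274, held 41.1. *Lgr5*, whose 3′ end has the GC content of the median gene (41.0%), was 25.8 and 36.4 in livers 1 and 2 and 41.6, 35.5, 31.7 and 44.0 in livers 3 to 6. The *Lgr5* mean was 38.2 in livers 3 to 6 and 31.1 in livers 1 and 2, with single livers overlapping and no test made.

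**Figure D2:**
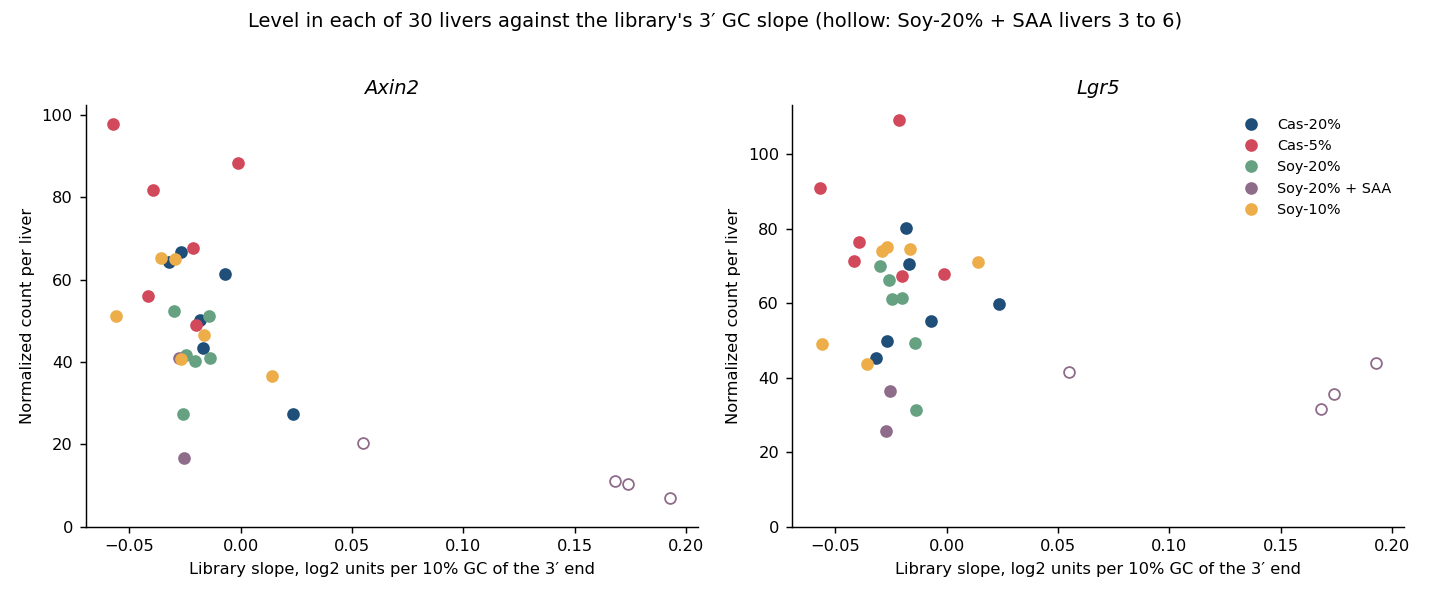
Normalized count per liver (y axes) of Axin2 (left) and Lgr5 (right) against the 3′ GC slope of the library in log2 units per 10% GC (x axes), one point per liver, coloured by diet; hollow points are Soy-20% + SAA livers 3 to 6. Axin2 lies between 6.94 and 20.3 in the hollow points, and Lgr5 between 31.7 and 44.0.

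Over all 5 diets, each of the 8 tested genes differed (edgeR quasi-likelihood F test with 30 livers), where 43.4% of 12561 genes did. The edgeR adjusted p was smallest for *Rhbg* (1.7e-06), *Tbx3* (4.8e-06), *Lect2* (9e-06) and *Slc1a2* (1.1e-05), and largest for *Rnf43* (0.013) and *Znrf3* (0.031). Without Soy-20% + SAA livers 3 to 6, or with the slope as covariate, 6 of 8 differed (background 26.2% and 28.3%). The 2 lost were *Rnf43* (edgeR adjusted p 0.13 and 0.11) and *Znrf3* (0.54 and 0.56), the brakes on Frizzled receptors.

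The genes did not share 1 profile over the diets. The ammonium transporter *Rhbg* averaged 110 ± 39 normalized counts (SD, n = 6) in Soy-20% + SAA and 96.3 ± 15.7 in Cas-20%, the 2 diets with most methionine. It was 57.3 ± 14.9 in Soy-20%, 44.6 ± 11.7 in Soy-10% and 31.8 ± 14.6 in Cas-5%. *Lect2* had a similar order, with 1759 ± 184 in Cas-20%, 1592 ± 304 in Soy-20% + SAA, 1271 ± 187 in Soy-20%, 1069 ± 196 in Soy-10% and 934 ± 183 in Cas-5%. For both, the 2 diets at the top did not differ beyond the larger SD, nor did the 2 at the bottom. Livers 1 and 2 of Soy-20% + SAA alone averaged 77.7 for *Rhbg* and 1336 for *Lect2*, both below Cas-20% and above Soy-20%. Protein amount and source also differ between these diets, so that a share of methionine in the order cannot be told apart.

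*Tbx3* ran the other way, with 833 ± 141 normalized counts in Cas-5% and 615 ± 110 in Soy-10% above 459 ± 88.7 in Cas-20%, 456 ± 102 in Soy-20% and 366 ± 84.6 in Soy-20% + SAA. The 3 control diets did not differ from their neighbours beyond the larger SD, and each step above them did. *Slc1a2* was highest in Cas-20% (1177 ± 174), followed by Soy-20% + SAA (1015 ± 116) and Cas-5% (926 ± 101), and lowest in Soy-20% (750 ± 124) and Soy-10% (746 ± 50.9). Livers 1 and 2 of Soy-20% + SAA alone averaged 882 for *Slc1a2*, below Cas-5%. *Glul* covered a narrow range, from 8173 ± 707 in Soy-10% through 8981 ± 693 in Soy-20%, 9746 ± 666 in Soy-20% + SAA and 9760 ± 814 in Cas-5% to 10838 ± 1444 in Cas-20%.

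*Lgr5* averaged 35.8 ± 6.6 in Soy-20% + SAA, 56.5 ± 14.2 in Soy-20%, 60.1 ± 13.1 in Cas-20%, 64.5 ± 14.3 in Soy-10% and 80.5 ± 16.5 in Cas-5%. Only its lowest step, between the supplemented and the plain soy diet, exceeded the larger SD. *Rnf43* ran from 65.0 ± 13.3 in Soy-20% + SAA over 83.8 ± 21.9 in Soy-10%, 85.5 ± 22.1 in Soy-20% and 98.3 ± 25.2 in Cas-20% to 113 ± 23.7 in Cas-5%, with no step beyond the larger SD. *Znrf3* ran from 66.2 ± 17.1 in Soy-20% + SAA to 97.3 ± 11.9 in Cas-5%, with the other 3 diets between 84.4 ± 12.6 and 87.5 ± 13.2. *Lgr5*, *Rnf43* and *Znrf3* thus had their lowest mean in Soy-20% + SAA and their highest in Cas-5%, as *Tbx3* did. With livers 1 and 2 alone, the Soy-20% + SAA mean was 31.1 for *Lgr5*, 64.6 for *Rnf43*, 83.7 for *Znrf3* and 411 for *Tbx3*. Each was still the lowest of the 5 diets, *Znrf3* by little (84.4 in Soy-10%). The 2 livers held 25.8 and 36.4 for *Lgr5*, 44.2 and 85.0 for *Rnf43*, 73.6 and 93.9 for *Znrf3*, and 301 and 521 for *Tbx3*. For *Rnf43*, *Znrf3* and *Tbx3*, the higher of these livers lay above the lowest mean of the other diets.

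**Figure D3:**
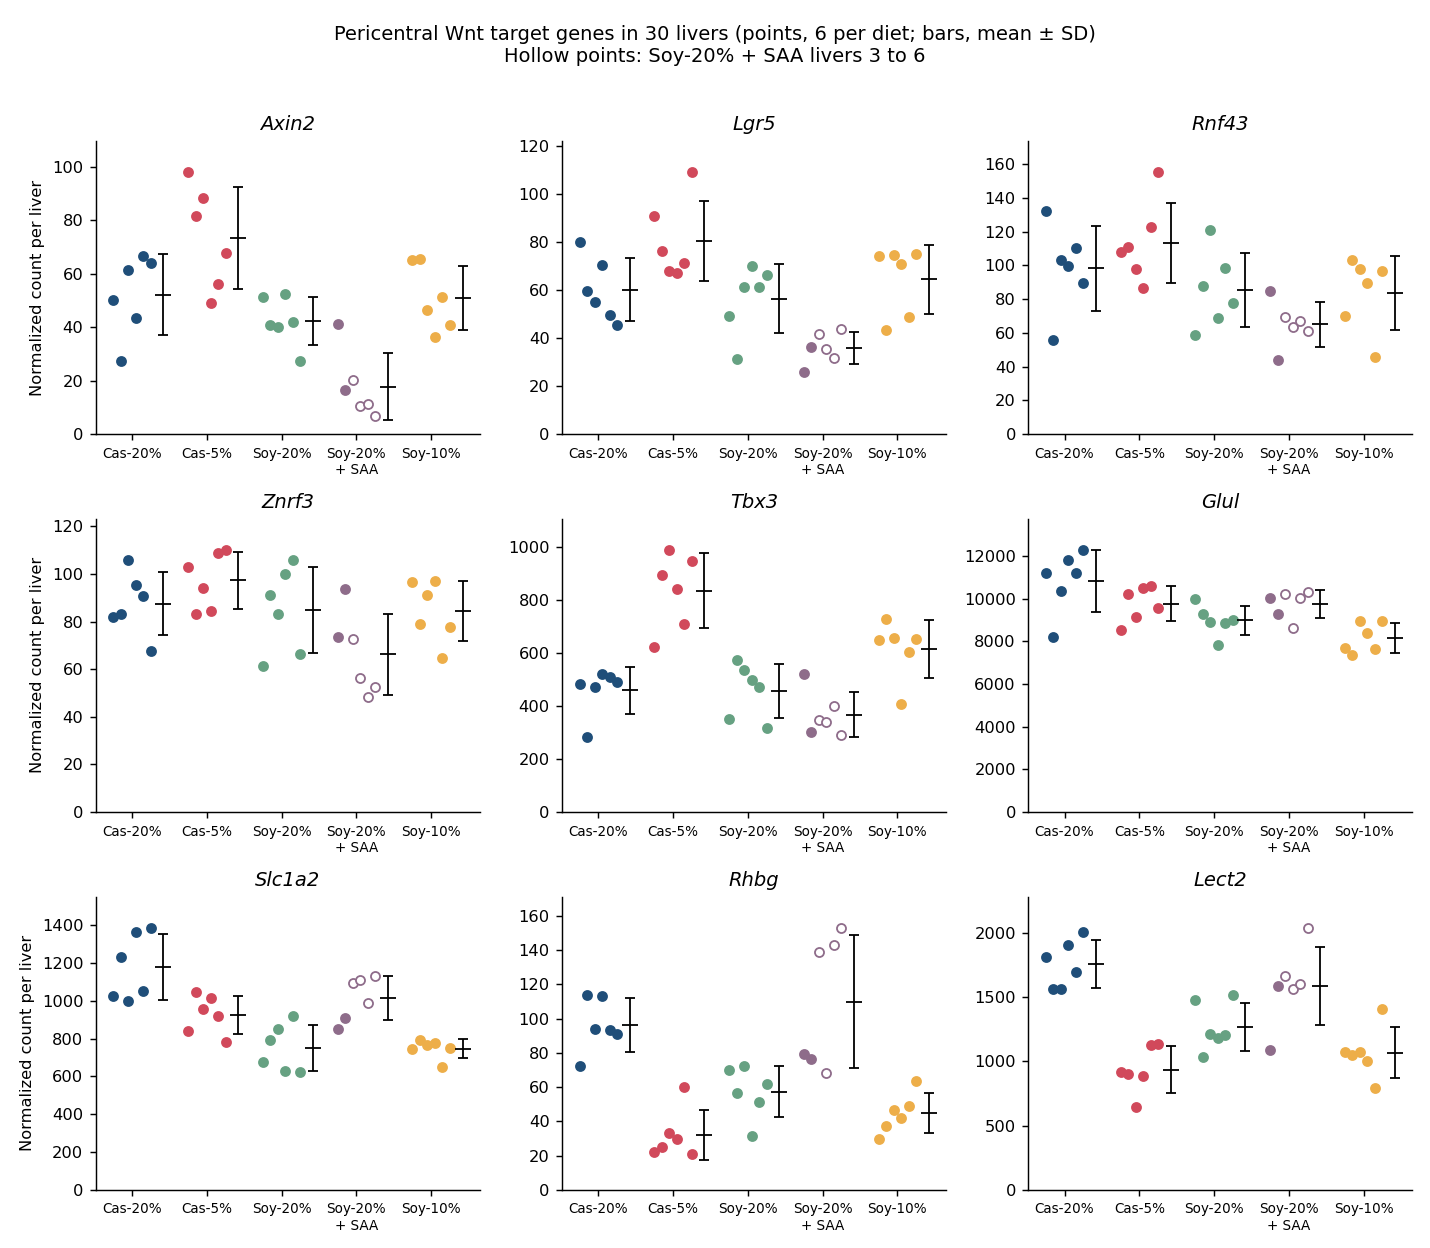
Normalized counts (y axes) of the 9 genes in 30 livers, 6 per diet (x axes), with points for livers and bars for mean ± SD; hollow points are Soy-20% + SAA livers 3 to 6. Rhbg and Lect2 are lowest in Cas-5% (means 31.8 and 934) while Tbx3 is highest there (833).

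Casein restriction changed the transport genes and the transcription factor gene in opposite directions. Of the 8 genes, *Tbx3* rose and *Rhbg*, *Lect2* and *Slc1a2* fell in Cas-5% against Cas-20%, a count of 4 where 24.9% of 12076 genes changed (11.6% higher, 13.3% lower). DESeq2 and the fit with the slope called the same 4, where 25.3% and 22.8% of genes were called. *Rhbg* was 72.1 at lowest, 93.8 at the median and 114 at highest in Cas-20%, and 21.1, 27.4 and 60.1 in Cas-5%. The 2 diets did not overlap, and the mean was 2.94-fold lower (log2 fold change −1.55 ± 0.21, SE, edgeR adjusted p 5.2e-05). *Lect2* ran from 1561 over 1755 to 2010 in Cas-20% and from 642 over 908 to 1136 in Cas-5%, again without overlap and 1.86-fold lower (−0.90 ± 0.12, edgeR adjusted p 2.8e-05). *Slc1a2* ran from 1000 over 1143 to 1385 and from 783 over 936 to 1045, which overlap, and was 1.26-fold lower (−0.33 ± 0.10, edgeR adjusted p 0.019).

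*Tbx3* had 282, 487 and 519 as lowest, median and highest values in Cas-20% and 623, 866 and 986 in Cas-5%. Each Cas-5% liver exceeded each Cas-20% liver, and the rise was 1.83-fold (0.87 ± 0.14, edgeR adjusted p 0.00018). The groups were separate for *Rhbg*, *Lect2* and *Tbx3*, as they were for 12.9% of all genes tested. *Lgr5* was higher by 0.43 ± 0.16 in log2, just short of the threshold (edgeR adjusted p 0.055), with 45.4 to 80.1 normalized counts in Cas-20% and 67.3 to 109 in Cas-5%. Log2 fold changes were 0.22 ± 0.17 for *Rnf43* (edgeR adjusted p 0.38), 0.17 ± 0.12 for *Znrf3* (0.32) and −0.14 ± 0.09 for *Glul* (0.30), and 0.50 ± 0.21 for *Axin2*, which carries no test. The *Axin2* value was 0.35 with the slope, 0.21 with the replicate block and the slope together, and 0.68 with libraries scaled to their totals. When libraries were scaled to their totals, an alternative chosen after seeing the data, the median of all genes shifted from 0.02 to 0.20 and the calls from 46.4% to 82.6% higher. Relative to that median the order of the 9 genes stayed, but *Slc1a2* was no longer called (−0.15, edgeR adjusted p 0.22), *Lgr5* (0.61, 0.0067) and *Znrf3* (0.35, 0.032) were, and *Glul* turned to 0.04.

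With Soy-20% + SAA as the control, *Tbx3*, *Rhbg*, *Lect2* and *Slc1a2* changed in soy restriction in the directions they had in casein restriction. *Lgr5* and *Glul*, which did not pass there, were called as well. These calls used all 6 control livers, and 0 of 8 genes passed without livers 3 to 6 (below). *Tbx3* and *Lgr5* rose and *Rhbg*, *Lect2*, *Slc1a2* and *Glul* fell in Soy-10%, 6 of 8 genes where 17.0% of 11983 changed (8.51% higher, 8.47% lower, and by library totals 67.4% of calls higher in place of 50.1%). *Rhbg* ranged from 68.0 to 153 (median 109) in Soy-20% + SAA and from 29.4 to 63.6 (median 44.1) in Soy-10%, without overlap and 2.48-fold lower (−1.31 ± 0.24, edgeR adjusted p 0.0031). *Slc1a2* was 853 to 1133 and 648 to 791, also without overlap and 1.36-fold lower (−0.45 ± 0.08, 0.0036). These were among the 6.22% of genes whose diets did not overlap.

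*Lect2* was 1.49-fold lower in Soy-10% (−0.58 ± 0.14, edgeR adjusted p 0.014) and *Glul* 1.19-fold lower (−0.26 ± 0.07, 0.027). The *Glul* call ended without any 1 of Soy-20% + SAA livers 3, 5 or 6 or Soy-10% livers 1, 2 or 5, and by library totals (−0.19, edgeR adjusted p 0.077). *Tbx3* was 1.68-fold higher (0.75 ± 0.15, edgeR adjusted p 0.0062) and *Lgr5* 1.79-fold higher (0.84 ± 0.17, 0.007). *Rnf43* (0.37 ± 0.19, edgeR adjusted p 0.18) and *Znrf3* (0.36 ± 0.16, 0.13) did not pass. The log2 fold change of *Axin2* was 1.53 ± 0.33.

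This count changed with the 4 libraries. Without Soy-20% + SAA livers 3 to 6, 0 of 8 genes passed with edgeR, where 2.54% of genes did, and 5 had an unadjusted p under 0.05, where 15.9% did. With all 6 control livers, DESeq2 called the same 6 genes as edgeR, where 19.9% of genes were called. With the slope as covariate 1 passed, *Lgr5* (1.03 ± 0.23, edgeR adjusted p 0.023), where 3.25% did. Signs stayed for all 6 called genes in both fits. Without the 4 livers, *Rhbg* was at −0.81 ± 0.22 (edgeR adjusted p 0.076), *Slc1a2* at −0.25 ± 0.08 (0.17), *Lect2* at −0.33 ± 0.17 (0.37), *Glul* at −0.25 ± 0.09 (0.21) and *Tbx3* at 0.57 ± 0.21 (0.19). *Lgr5* was larger, at 1.05 ± 0.26 (0.057), and *Axin2* fell to 0.79 ± 0.32, or 0.75 ± 0.26 with the covariate. *Znrf3* went to 0.01 ± 0.17, so that its value in the full set was not there without those livers. Only 2 control livers remain in that fit. Among the 6 called genes, the errors of *Rhbg* and *Slc1a2* were no wider in it, and those of *Lect2*, *Glul*, *Tbx3* and *Lgr5* were.

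Against Soy-20%, which avoids these libraries but has less methionine than the supplemented control, 0 of 8 genes passed in Soy-10% with edgeR or DESeq2, where 0.866% (0.319% higher, 0.546% lower) and 1.82% of 11897 genes did. At an unadjusted p under 0.05 there were 2, where 12.3% of genes passed. *Tbx3* had the largest difference, 315 to 572 normalized counts in Soy-20% and 405 to 727 in Soy-10% (0.43 ± 0.15, edgeR adjusted p 0.21). *Rhbg* was at −0.37 ± 0.20 (edgeR adjusted p 0.49), *Lect2* at −0.25 ± 0.12 (0.40), *Glul* at −0.14 ± 0.07 (0.45), *Lgr5* at 0.19 ± 0.19 (0.75) and *Axin2* at 0.27 ± 0.18. *Slc1a2*, *Rnf43* and *Znrf3* were within 0.02 of 0. The 2 soy comparisons share the Soy-10% livers and are not independent.

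**Figure D4:**
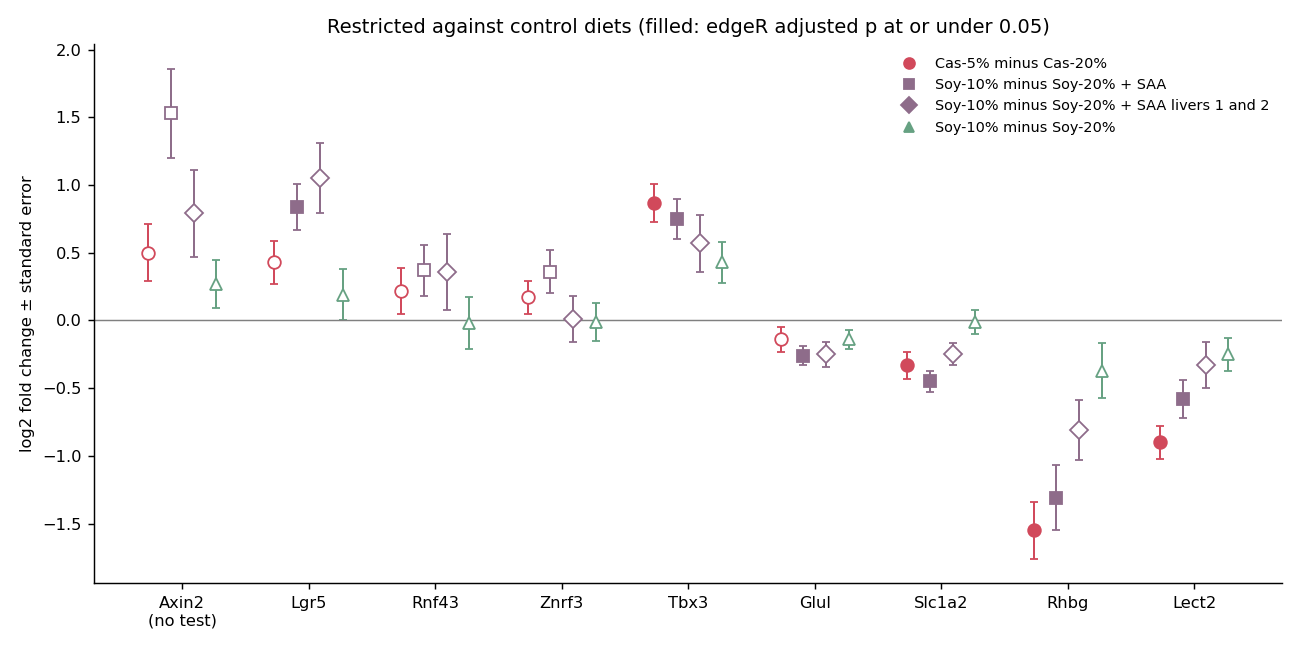
Log2 fold change ± SE (y axis) of the 9 genes (x axis) for casein restriction, soy restriction against Soy-20% + SAA with 6 or with 2 control livers, and soy restriction against Soy-20%; filled symbols have an edgeR adjusted p of 0.05 or less, and Axin2 is not tested. Tbx3 lies above 0 in all 4 (0.87, 0.75, 0.57 and 0.43), and Rhbg below (−1.55, −1.31, −0.81 and −0.37).

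Whether the response to restriction depended on the protein was tested in 24 livers, by subtracting the effect of soy restriction from that of casein restriction. By edgeR 0 of 8 genes passed, where 8.69% of 12532 did (3.2% higher, 5.49% lower, and 36.8% of calls higher against 75.6% by library totals). With DESeq2 0 passed, where 10.9% did, and 0 had an unadjusted edgeR p under 0.05, where 26% did. Without livers 3 to 6, and with the slope, edgeR called 0 of 8 (2 and 1 at an unadjusted p under 0.05), where 2.27% and 4.49% of genes passed. *Rhbg* differed by −0.25 (edgeR adjusted p 0.69), *Lect2* by −0.33 (0.28), *Lgr5* by −0.41 (0.29) and *Tbx3* by 0.12. *Axin2* differed by −1.04 ± 0.40, by −0.30 ± 0.41 without the 4 livers and by 0.22 ± 0.29 with Soy-20% as the soy control. With that control, *Rhbg* (−1.19 ± 0.31, edgeR adjusted p 0.020) and *Lect2* (−0.65 ± 0.18, 0.024) fell more under casein restriction, where 5.99% of genes differed.

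Soy-20% had no added sulfur amino acids, while Cas-20% had added cystine. The transport genes and *Lect2* were lower in Soy-20%. In Soy-20% against Cas-20%, *Slc1a2* was 1.57-fold lower (−0.65 ± 0.11, edgeR adjusted p 0.0075) and *Lect2* 1.39-fold lower (−0.47 ± 0.10, 0.017), both without overlap of the livers, and *Rhbg* was 1.68-fold lower (−0.75 ± 0.17, 0.029). That is 3 of 8 genes, where 2.69% of 11875 changed, 1.45% were lower and 2.43% did not overlap (46.1% of calls higher, 69.2% by library totals). *Slc1a2* held 1000 to 1385 normalized counts in Cas-20% and 624 to 921 in Soy-20%. *Tbx3* (−0.01), *Znrf3* (−0.05) and *Lgr5* (−0.10) were nearly level, and *Axin2* was at −0.30 ± 0.20. The *Rhbg* call was lost without any 1 of Cas-20% livers 2, 3 or 4 or Soy-20% livers 2 or 5, with the slope (edgeR adjusted p 0.052) and in 1 fit of 30 livers (0.063). With the slope *Glul* was called in its place (−0.32, edgeR adjusted p 0.048). With the replicate block and the slope together, the *Slc1a2* and *Lect2* calls ended as well (−0.66 and −0.43, edgeR adjusted p 0.14 and 0.08). These 2 diets differ in methionine and cysteine as well as in protein source.

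Where sulfur amino acids were matched, in Soy-20% + SAA against Cas-20%, *Lgr5* alone passed (2.43% of 11988 genes, 1.42% lower, 41.6% of calls higher and 65.9% by library totals). It was 1.68-fold lower (−0.75 ± 0.17, edgeR adjusted p 0.042), with 25.8 to 44.0 normalized counts against 45.4 to 80.1, which do not overlap, as for 2.69% of genes. Leaving out any 1 of Cas-20% livers 1 to 5 or Soy-20% + SAA livers 3 to 6 ended that call. Without livers 3 to 6 together the difference was −0.96 (edgeR adjusted p 0.55), where 0.024% of genes passed. With the slope 0 of 8 passed by edgeR (4 at an unadjusted p under 0.05), where 0.0417% of genes did. With DESeq2 *Lgr5* and *Rnf43* passed, where 9.43% did. *Axin2* was at −1.56 ± 0.35 with all livers and −0.82 ± 0.37 without the 4. *Rnf43* (−0.60 ± 0.18, edgeR adjusted p 0.076), *Znrf3* (−0.41 ± 0.16, 0.13), *Tbx3* (−0.33 ± 0.16, 0.21), *Slc1a2* (−0.22), *Lect2* (−0.15), *Glul* (−0.16) and *Rhbg* (0.19) did not pass. Without livers 3 to 6, *Rnf43* was at −0.59, *Znrf3* at −0.07, *Tbx3* at −0.15, *Slc1a2* at −0.41, *Lect2* at −0.39, *Glul* at −0.16 and *Rhbg* at −0.31, which turned its sign. With the replicate block *Lgr5* was not called (edgeR adjusted p 0.071) and *Rnf43* was (0.039).

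Soy-20%, the diet without the supplement, was also compared with Soy-20% + SAA. This gave 0 of 8 calls with edgeR and 3 with DESeq2, where 0.00838% and 7.32% of 11932 genes passed. At an unadjusted edgeR p under 0.05 there were 5, where 24.2% of genes passed. The 3 were *Lgr5* (edgeR 0.66 ± 0.19, adjusted p 0.082), *Rhbg* (−0.93 ± 0.24, 0.066) and *Slc1a2* (−0.43 ± 0.11, 0.066). Without livers 3 to 6, these stood at 0.86 ± 0.30, −0.44 ± 0.24 and −0.24 ± 0.14, with 0 of 8 called by edgeR (1 at an unadjusted p under 0.05), where 0.0% of 12396 genes were. With the slope they stood at 0.75 ± 0.26, −0.61 ± 0.28 and −0.28 ± 0.13, again with 0 of 8 called by edgeR (3 at an unadjusted p under 0.05) and 0.0% of genes. *Axin2* was at 1.27 ± 0.33, and 0.52 ± 0.32 without the 4 livers.

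The 2 restricted diets also differed. In Soy-10% against Cas-5%, *Tbx3* (−0.45 ± 0.12, edgeR adjusted p 0.025), *Slc1a2* (−0.33 ± 0.07, 0.0083) and *Glul* (−0.27 ± 0.07, 0.020) were lower, 3 of 8 genes, where 10.7% of 12041 changed (6.14% higher, 4.59% lower, 57.2% of calls higher, 25% by library totals). *Tbx3* lost its call without Cas-5% liver 2, 3 or 6. In 1 fit of 30 livers, *Slc1a2* and *Tbx3* were not called (edgeR adjusted p 0.052 and 0.088). With the replicate block and the slope together *Glul* was not called (0.051). *Rhbg* was at 0.44 ± 0.24 (edgeR adjusted p 0.28), a value that Cas-5% liver 5 decides, since without it the difference was 0.75 (edgeR adjusted p 0.025). *Lect2* (0.18), *Lgr5* (−0.34), *Rnf43* (−0.45), *Znrf3* (−0.23) and *Axin2* (−0.53 ± 0.18) complete the list.

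In the rest of the pathway, single genes changed in casein restriction, and the shares called among ligands, receptors and TCF/LEF genes were near the 24.9% of all genes. Of the Wnt ligand and R-spondin list, 7 of 14 genes were tested and 2 rose. *Porcn*, the acyltransferase that readies Wnts for secretion, went from 22.2 ± 6.01 to 38.2 ± 7.37 normalized counts (0.79 ± 0.19, edgeR adjusted p 0.0062). *Rspo3* went from 192 ± 19.6 to 236 ± 24 (0.32 ± 0.09, 0.015). The list's median log2 fold change was 0.23, against 0.02 over all genes. Of 11 receptors, *Ryk* rose (0.21) and *Fzd8* (−0.61) and *Fzd4* (−0.48) fell, with a median of −0.15. Among 16 genes of β-catenin and its destruction complex, *Dvl1* rose (0.31) and *Gsk3b* fell (−0.31, a call lost with the slope as covariate), with a median of 0.04.

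Of 15 TCF/LEF genes and co-factors, 1 rose and 3 fell in Cas-5%, beside 11.6% and 13.3% of all genes. *Tcf7*, a TCF factor gene, rose from 16.7 ± 3.07 to 33.4 ± 5.53 without overlap (1.01 ± 0.17, edgeR adjusted p 0.0004). Those that fell included *Tle5*, a Groucho-family gene (−0.47, edgeR adjusted p 0.00054), and *Ctnnbip1*, encoding an inhibitor of β-catenin binding to TCF (−0.53, 0.004). Of 5 tested Wnt inhibitors, 2 rose. *Notum*, whose enzyme strips the lipid from Wnts, went from 261 ± 54.1 to 556 ± 96.9 without overlap (1.11 ± 0.13, edgeR adjusted p 1.3e-05). *Dkk3* went from 10.0 ± 3.72 to 23.9 ± 6.74 (1.25 ± 0.26, 0.0021).

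In soy restriction against Soy-20% + SAA the calls in these lists were mostly lost without the 4 libraries, as were those over all genes, which went from 17.0% to 2.54% (3.25% with the slope). Beside 8.51% of all genes called higher and 8.47% lower, 3 of 11 receptors rose (*Ror1*, *Ryk* and *Fzd7*, list median 0.52). By edgeR 0 did without livers 3 to 6 (2 at an unadjusted p under 0.05, median −0.04) or with the slope (3, median 0.03). *Ror1* kept its size, from 1.09 to 1.22 without the 4 livers and 1.24 with the slope (edgeR adjusted p 0.15 and 0.08), while *Fzd7* went from 1.07 to 0.19 and 0.41 and *Ryk* from 0.33 to 0.11 and 0.19. Of 5 inhibitors, *Kremen1* (0.68) and *Nkd1* (0.57), both lost in either fit, and *Notum* (1.78 ± 0.54, edgeR adjusted p 0.035) rose. *Notum* averaged 115 ± 123 in Soy-20% + SAA and 390 ± 29.7 in Soy-10%, and its difference was 0.53 without the 4 livers (edgeR adjusted p 0.021) and 0.74 with the slope, where the call was lost (0.072). *Usp34* (−0.29), *Amer1* (−0.40) and *Rnf146* (0.70) were called in the destruction complex list of 16 and lost in both fits. Without the 4 livers and with the slope, *Usp34* was at −0.23 and −0.27, *Amer1* at −0.28 and −0.29, and *Rnf146* at 0.13 and 0.28. Of 7 ligands, 0 were called by edgeR (0 at an unadjusted p under 0.05, where 33.9% of genes passed) or DESeq2, and *Rspo3* stood at 0.00 ± 0.08. Of 15 TCF/LEF genes, 0 were called by edgeR (6 at an unadjusted p under 0.05) and 1 by DESeq2. Against Soy-20%, edgeR and DESeq2 called 0 genes in each of these 5 lists, beside 0.866% and 1.82% of all genes, with 1 ligand, 2 receptors, 0 destruction complex genes, 3 TCF/LEF genes and 1 inhibitor at an unadjusted edgeR p under 0.05, beside 12.3% of all genes.

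Single genes of the other zonal programmes were called too, and no list was tested as a whole. Of 27 other pericentral genes, 7 rose and 11 fell in Cas-5% (median −0.03), where 11.6% of all genes rose and 13.3% fell. *Oat*, ornithine aminotransferase, fell from 8498 ± 2057 to 1530 ± 173 normalized counts (−2.46 ± 0.14, edgeR adjusted p 7e-09), and *Gstm2* (−1.1) and *Lhpp* (−1.22) fell as well. Of 20 periportal genes, 13 fell and 1 rose (median −0.76), led by *Gls2*, *Ass1* and *Aldh1b1*. *Ass1*, argininosuccinate synthase, fell from 8297 ± 2475 to 1563 ± 229 (−2.39 ± 0.16, edgeR adjusted p 3.8e-08). Of 12 partners in glutamine and ammonia handling, 6 fell and 1 rose (median −0.52). *Gls2*, the liver glutaminase, fell from 3214 ± 583 to 879 ± 95.8 (−1.86 ± 0.11, 1.3e-08) and *Slc38a3*, a glutamine transporter gene, from 5710 ± 488 to 2535 ± 179 (−1.16 ± 0.07, 1.3e-08). *Glul* itself was not called beside them.

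In soy restriction against Soy-20% + SAA, 4 of the 27 other pericentral genes rose and 6 fell (median 0.06), and 2 rose and 5 fell of the 20 periportal genes (median −0.06), beside 8.51% and 8.47% of all genes. Of the pericentral genes, 2 rose and 1 fell both without livers 3 to 6 and with the slope. Of the periportal genes, 1 rose and 3 fell without the livers, and 2 rose and 4 fell with the slope, where 2.54% and 3.25% of all genes were called. *Cyp2c37* rose from 683 ± 128 to 1467 ± 144 (1.1 ± 0.11, edgeR adjusted p 0.00013) and remained called without livers 3 to 6 (1.01, edgeR adjusted p 0.00072). *Ass1* (−0.88, edgeR adjusted p 0.00033) and *Aldh1b1* (−1.62, 0.0007) fell. Of the glutamine and ammonia partners 6 of 12 fell (median −0.41), 4 of 13 without the livers and 4 of 12 with the slope, among them *Slc38a4* (−0.50), *Slc38a3* (−0.57) and *Gpt* (−0.69), and these 3 stayed called without the 4 livers (edgeR adjusted p 0.0051, 0.012 and 0.038). Against Soy-20%, where 0.319% of all genes rose and 0.546% fell, 2 rose and 1 fell of the 27 pericentral genes, 4 of 20 periportal genes fell (median −0.24), and 1 of 12 partners fell, *Gls2* (−0.49, edgeR adjusted p 0.033).

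**Figure D5:**
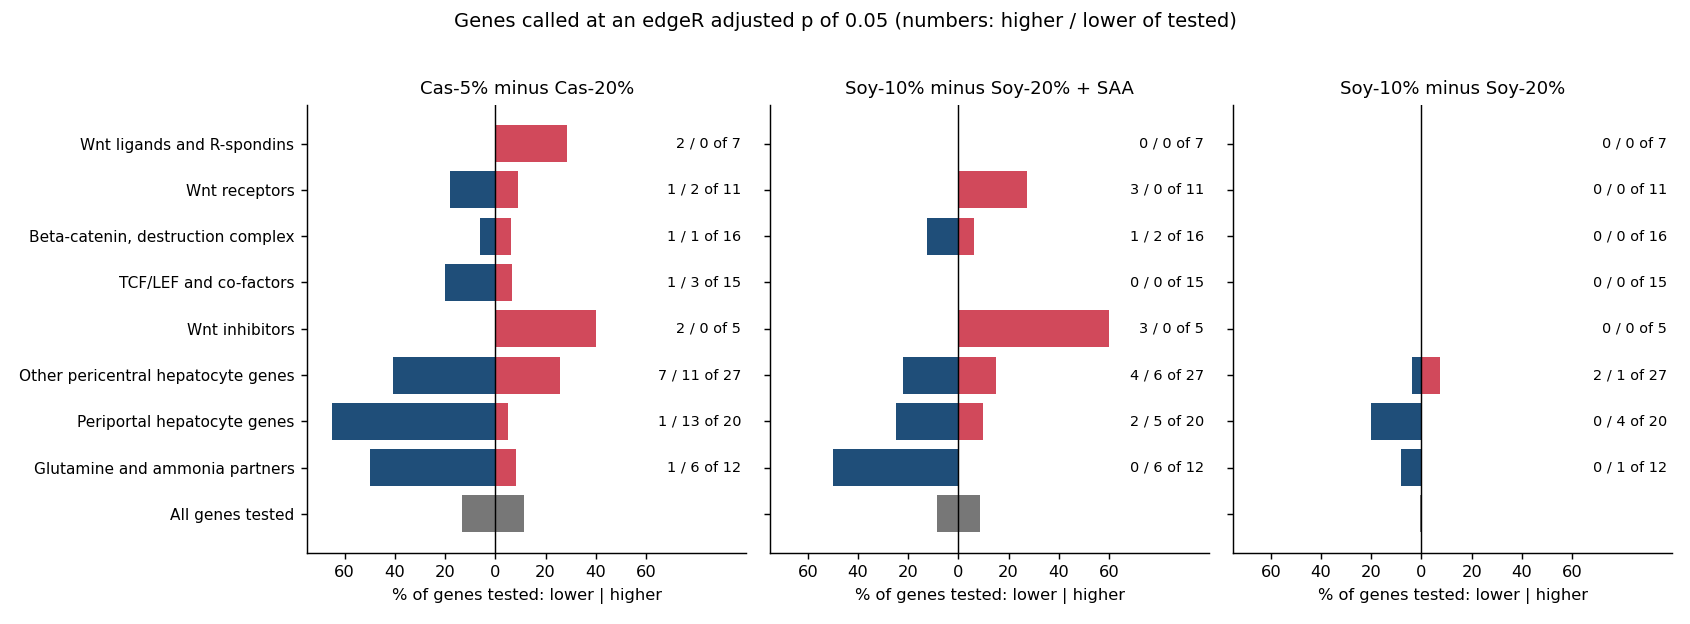
Percent of tested genes called lower (left, blue) or higher (right, red) at an edgeR adjusted p of 0.05 in 8 gene lists (y axis) for 3 restriction comparisons, with all genes tested in grey and the counts of higher and lower genes printed. In casein restriction 13 of 20 periportal genes were lower, and among 27 other pericentral genes 7 were higher and 11 lower.

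Between the restricted diets, Soy-10% against Cas-5%, several of these genes differed as well. *Rspo3* (188 ± 12.2 against 236 ± 24, −0.35 ± 0.08, edgeR adjusted p 0.0087) and *Notum* (390 ± 29.7 against 556 ± 96.9, −0.53 ± 0.10, 0.0019) were lower without overlap in Soy-10%, as 5.86% of genes did not overlap. *Tcf7* was lower (−0.58, edgeR adjusted p 0.043), while *Ctnnbip1* (0.54, 0.00048) and *Tle5* (0.32, 0.0021) were higher. Of 20 periportal genes 10 were higher and 2 lower, beside 6.14% and 4.59% of all genes, and in the difference between both restriction effects 12 of 20 were lower and none higher (median −0.69, and 10 lower without livers 3 to 6, 11 with the slope), where 5.49% of all genes were lower, 2.27% were called without those livers and 4.49% with the slope. The list was led by *Gls2*, *Ass1* and *Hal*. Among the 8 Wnt target genes, 0 passed that test (above).

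Some markers of other cell types moved with casein restriction too. The 12 markers of sinusoidal and central vein endothelium, the cells that make Wnt ligands and Rspo3, summed to 3126 ± 133 normalized counts in Cas-20% and 3400 ± 142 in Cas-5%, with most counts for *Kdr*. Of 11 tested, *Oit3*, *Rspo3* and *Kdr* rose (median 0.11, beside 11.6% of all genes). *Wnt2* had a median of 59.1 over the 30 livers and *Wnt9b* of 3.79, and *Wnt9b* was at 0 in 1 liver. The 7 stellate markers summed to 4541 ± 307 and 5464 ± 583, with most counts for *Dcn*, and 3 of 7 rose (median 0.32). The red blood cell sum was 24380 ± 6835 in Cas-20% and 16122 ± 3648 in Cas-5%, where 4 of 5 markers fell, beside 13.3% of all genes. *Alb* rose from 467087 ± 23721 to 589764 ± 64430, while *Serpina1c* fell. The immune sum was 2442 ± 433 and 2316 ± 380, and the cholangiocyte sum 526 ± 74.7 and 435 ± 50.9. *Cela1*, the only pancreatic acinar marker tested, was called lower in Cas-5% (−0.75), with 439 ± 138 in Cas-20% and 257 ± 60 in Cas-5%. The part of these changes in the values of the Wnt target genes was not tested.

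Over the soy diets the endothelial sum was 3159 ± 214 in Soy-20%, 3287 ± 254 in Soy-20% + SAA and 3240 ± 120 in Soy-10%, and of 11 markers *Oit3* alone rose against Soy-20% + SAA (0.35, edgeR adjusted p 0.027), beside 8.51% of all genes, and the call was lost without livers 3 to 6 (0.19, 0.39). The cholangiocyte sum was lower in Soy-10% (314 ± 31.9) than in Soy-20% + SAA (432 ± 67.8) and Soy-20% (459 ± 70.7), and *Sox9*, its gene with most counts and 1 of 2 tested, fell against both (174 ± 13.5 against 266 ± 38.5 and 273 ± 24.9). Without livers 3 to 6 the *Sox9* call against Soy-20% + SAA stayed (−0.83, edgeR adjusted p 0.0017). Of 5 hepatocyte markers, *Apoa1* (−0.31) and *Trf* (−0.23) were called lower against Soy-20% + SAA, beside 8.47% of all genes. Both calls were lost without the 4 livers (−0.38 and −0.13, edgeR adjusted p 0.16 and 0.53). In Soy-10% against Cas-5%, 4 of 7 stellate markers (*Dcn*, *Ecm1*, *Colec11* and *Reln*) were lower, beside 4.59% of all genes, with a median of −0.26 and sums of 4526 ± 210 and 5464 ± 583. The endothelial marker *Rspo3* and the cholangiocyte marker *Spp1* were also lower there, and *Serpina1c*, *Alas2* and *Car3* were higher. In Soy-20% + SAA against Cas-20%, 4 of 5 red blood cell markers were lower (median −0.77), beside 1.42% of all genes, with sums of 14605 ± 2611 (14845 ± 3065 in livers 3 to 6) and 24380 ± 6835. Of 4 listed adipocyte genes, *Car3* alone was in the count table, at 29244 normalized counts or more in every liver. By itself it cannot be read as a sign of adipocytes. *Car3* was higher in Soy-20% + SAA against Cas-20% (0.47) and in Soy-20% against Cas-20% (0.68). The part of these in the values of the Wnt target genes was not tested. The 5 pancreatic acinar markers summed to 6075 normalized counts in Soy-10% liver 4, against at most 629 in each of the other livers. Their defining genes *Prss2* and *Pnlip* were at 0 in 26 of 30 livers. Without Soy-10% liver 4, the count of called Wnt target genes was as with it in the comparisons with Soy-20% + SAA (6), Soy-20% (0) and Cas-5% (3).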

How the data were processed

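The authors made 1 QuantSeq 3′ FWD library (Lexogen) per liver and processed reads with the Bluebee QuantSeq pipeline 2.3.6 on GRCm38/mm10, and the aligner and annotation release are not given in the sources used here. The deposited tables hold raw counts per gene and, as a normalized signal, those counts divided by size factors that the authors made with DESeq2 1.30 in R 4.0.3. Neither table is scaled for gene length, so counts of different genes are ranked only to name the gene of a list with most counts, not to compare expression. Of 1718 missing symbols, 1684 were filled from GENCODE M21. Counts per library had a median of 10803734.5. Each liver, from its own mouse, is 1 replicate.

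Raw counts were tested with edgeR 4.0.16 in R 4.3.3 (filterByExpr, TMM, quasi-likelihood F test, Benjamini-Hochberg over all genes tested, threshold 0.05), with only the diets compared in a fit. Alternatives were DESeq2 1.42.0, other scalings and filters, a replicate block, the GC slope, 1 fit of 30 livers, and fits without libraries. Slopes came from log2 CPM with a prior count of 2, over genes with a mean of at least 10 counts. GC content was that of the last 200 nucleotides of each gene's longest GENCODE M21 transcript. Scripts were tested on simulated data. Python 3.11.15 with pandas 2.3.3, numpy 2.4.6 and matplotlib 3.10.9 was used.

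The 9 genes, the 8 gene lists and the marker lists were chosen with earlier results of these data known. Named from a list were up to 3 genes with the smallest adjusted p in a comparison, and from a list with no call the 2 with most counts. For *Axin2* and *Glul*, the 5 genes most alike by Spearman's rho of log2 CPM were named.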

Additional observations from a re-analysis of the deposited data

Results flagged for a closer look

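In 3 of 45 groups of 6 livers (9 genes in 5 diets), 1 liver lay apart from the other 5 by more of the group's range than Dixon's 95% critical value, which chance passes in about 1 of 20 groups. *Tbx3* was lowest in Cas-20% liver 2, at 282 normalized counts, with a gap of 0.79 of the range. *Rhbg* was highest in Cas-5% liver 5, at 60.1 (0.696 of the range), and without that liver its log2 fold change in casein restriction was −1.86 in place of −1.55. *Slc1a2* was lowest in Soy-10% liver 5, at 648 (0.693 of the range).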

How the results depend on the processing

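In casein restriction the same 4 genes (*Tbx3*, *Rhbg*, *Lect2* and *Slc1a2*) were called under DESeq2, RLE scaling, both other filters, the replicate block, the GC slope and 1 fit of 30 livers, and 4 to 5 genes with 1 liver left out. Library totals, chosen after seeing the data, lost *Slc1a2*, gained *Lgr5* and *Znrf3* and turned *Glul* to 0.04. The causes of the changes below were not tested. For soy restriction against Soy-20% + SAA the count of 6 became 1 with the GC slope, 1 with the replicate block and GC slope together (*Rhbg*), 0 without livers 3 to 6, and 5 to 7 with 1 liver left out. Library totals gave 5, without *Glul* (−0.19, edgeR adjusted p 0.077). The *Glul* call ended without Soy-20% + SAA liver 3, 5 or 6 or Soy-10% liver 1, 2 or 5. *Axin2* moved with the GC slope and without livers 3 to 6 to 0.75 and 0.79 in that comparison, to 0.54 and 0.52 in Soy-20% against Soy-20% + SAA, to −0.83 and −0.82 in Soy-20% + SAA against Cas-20%, and to −0.36 and −0.30 in the casein minus the soy effect.

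Soy-20% against Soy-20% + SAA had 3 calls with DESeq2 and 3 in 1 fit of 30 livers, and 0 to 3 with 1 liver left out. Soy-20% + SAA against Cas-20% had 2 with DESeq2 and 2 in 1 fit, 0 with the GC slope, 0 with block and slope, 0 without livers 3 to 6, and 0 to 3 with 1 liver left out. Soy-20% against Cas-20% had 2 to 3 with 1 liver left out, 0 with block and slope, and 3 with the slope, where *Glul* replaced *Rhbg*. Soy-10% against Cas-5% had 1 in 1 fit (*Glul*), 2 with block and slope (without *Glul*), 4 by library totals (with *Rnf43*) and 2 to 4 with 1 liver left out. Soy-20% as the soy control gave 2 for the casein minus the soy effect, and Soy-10% against Soy-20% stayed at 0.

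*Axin2*, which carries no test, turned from −1.04 to 0.22 in the casein minus the soy effect with Soy-20% as control. Values of the other 8 genes that changed sign were called under neither setting. In Soy-10% against Soy-20% they were *Slc1a2* (0.0 with the replicate block, 0.0 with the slope, 0.03 with both, 0.03 by library totals), *Rnf43* (0.01 with both, 0.02 by totals) and *Znrf3* (0.0 with the slope, 0.01 with both, 0.03 by totals), and with 1 liver left out they ran from −0.05 to 0.06, −0.10 to 0.10 and −0.08 to 0.06. In Soy-20% against Cas-20% they were *Lgr5* (0.06 with block and slope, −0.17 to 0.03 with 1 liver left out), *Tbx3* (0.04 by totals, −0.11 to 0.08) and *Znrf3* (0.01 by totals, −0.12 to 0.03). *Znrf3* was −0.07 with block and slope in Soy-20% against Soy-20% + SAA, and *Rhbg* was −0.11 with the slope, −0.06 with block and slope and −0.31 without livers 3 to 6 in Soy-20% + SAA against Cas-20%. In the casein minus the soy effect, Soy-20% as control gave *Glul* 0.0, *Lgr5* 0.23, *Slc1a2* −0.33, *Rnf43* 0.24 and *Znrf3* 0.17. There, *Slc1a2* was −0.02 with the slope and −0.09 without livers 3 to 6, and *Znrf3* 0.03, 0.15 and, with block and slope, 0.05.

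Liver numbers are shared between diets but did not pair them: correlations of same-numbered livers ran from −0.19 to 0.194 over the 7 pairs of diets, at most 2 of 6 were over 0.1 in any pair, and 0 to 3 livers correlated best with their own number. With the replicate block the counts over the 9 comparisons were 4, 6, 0, 0, 1, 2, 3, 0 and 8. The only count that changed was in Soy-20% against Cas-20%, from 3 to 2, where *Rhbg* was not called (edgeR adjusted p 0.087). In Soy-20% + SAA against Cas-20%, *Rnf43* took the place of *Lgr5* under the block. Over all genes, edgeR calls changed from 103 to 216 with DESeq2 in Soy-10% against Soy-20%, from 1 to 873 in Soy-20% against Soy-20% + SAA, from 291 to 1130 in Soy-20% + SAA against Cas-20% (5 with the slope, 3 without livers 3 to 6) and from 319 to 608 in Soy-20% against Cas-20%. They fell from 2035 to 389 with the slope and 317 without livers 3 to 6 in soy restriction against Soy-20% + SAA, from 1089 to 563 and 296 in the casein minus the soy effect, and from 5450 to 3559 and 3433 over all diets. Depth limits *Axin2*, *Lgr5* and *Rhbg* most, with means of 47.8, 60.5 and 70.1 raw counts per liver.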

Other observations

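Over 30 livers, the 5 genes whose log2 CPM was most like that of *Axin2* were *Agtr1a* (Spearman's rho 0.798), *Rpl7a* (0.785), *Rab3gap2* (0.785), *Cyp2c37* (0.781) and *Rpl10a* (0.777). Over the 26 livers without Soy-20% + SAA livers 3 to 6, rho was 0.710, 0.675, 0.677, 0.679 and 0.757 in the same order. *Agtr1a* (31.5%) and *Cyp2c37* (30.5%) also have little GC in their last 200 nucleotides. *Rpl7a* and *Rab3gap2* have 41.5% each and *Rpl10a* 50.5%. For *Glul* they were *Ncmap* (0.710), *Epas1* (0.679), *Sbk1* (0.669), *Gckr* (0.665) and *Fn1* (0.661), and over 26 livers 0.711, 0.722, 0.714, 0.769 and 0.645. These are descriptions over livers that share diets and libraries, with no test. *Cyp2c37*, a pericentral cytochrome P450 gene, is named here for its likeness to *Axin2* over these same livers. Its log2 fold changes in Soy-10% were 1.1 ± 0.11 against Soy-20% + SAA and 0.38 ± 0.08 against Soy-20%. These are not independent of that choice and say nothing further about *Axin2*.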
